A study of Mus musculus with 8 samples.

Results

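The 10 genes described here regulate or mark the oligodendrocyte lineage: Olig1, Olig2, Sox10, Nkx2-2, Nkx6-2, Myrf, Pdgfra, Gpr17, Lhfpl3 and Enpp6. They were chosen by name with earlier results of these data known, so counts among them are descriptions. All 10 were found among the 55450 genes of a bulk RNAseq table and the 27998 genes of a single-cell table. Both come from mouse median eminence (ME), the floor of the hypothalamus below the third ventricle. The bulk libraries compared 3 control mice (genotype WT) with 4 Rax::BrafV600E mutant mice, and the single-cell library pooled the ME of 10 female WT mice. All samples were labelled C57BL/6 and 2 months of age. By the study's methods, the mutants carried a tamoxifen-inducible Cre in the Rax locus, a homeobox gene of tanycytes, and an inducible activated Braf allele, and the ME was dissected 2 months after tamoxifen, a time that the age label does not state. The wording on tamoxifen can be read for both groups, and whether controls carried the Cre and the sex of the bulk mice are not given in the sources used here. The methods give 3 control and 4 mutant mice for the bulk libraries, and call the mutant ME tumor tissue.

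Oligodendrocytes wrap axons with myelin. They arise from oligodendrocyte precursor cells (OPCs), which divide in response to PDGF through the receptor Pdgfra and pass through a committed, newly formed stage before they make myelin. The basic helix-loop-helix factors Olig1 and Olig2 and the HMG-box factor Sox10 act from the precursor to the mature cell, the homeodomain factors Nkx2-2 and Nkx6-2 act at the onset of differentiation and later, and Myrf is the membrane-bound factor that switches on myelin genes. The orphan receptor Gpr17 and the choline phosphodiesterase Enpp6 mark committed and newly formed cells, and the tetraspan protein Lhfpl3 is a precursor marker whose role is less well described.

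The RefSeq promoter table (GRCm38.p6) held 6 of the 10 genes. The 250 bases before the start site are shown for the genes that stand for the stages of the lineage, namely Pdgfra and Lhfpl3 for the precursor, Enpp6 for the newly formed cell and Nkx6-2 for the mature cell. Capitals mark matches on either strand to the E-box letters CAGCTG or CATCTG, the NK2 letters CACTTGA or the SOX letters ACAAAG or ACAATG.
Pdgfra, chr5:75152001-75152250, plus strand: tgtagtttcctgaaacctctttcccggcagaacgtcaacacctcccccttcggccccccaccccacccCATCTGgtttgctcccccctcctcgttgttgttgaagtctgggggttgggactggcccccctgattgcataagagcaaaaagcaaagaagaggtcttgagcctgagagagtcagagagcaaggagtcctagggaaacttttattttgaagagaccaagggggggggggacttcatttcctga
Lhfpl3, chr5:22745804-22746053, plus strand: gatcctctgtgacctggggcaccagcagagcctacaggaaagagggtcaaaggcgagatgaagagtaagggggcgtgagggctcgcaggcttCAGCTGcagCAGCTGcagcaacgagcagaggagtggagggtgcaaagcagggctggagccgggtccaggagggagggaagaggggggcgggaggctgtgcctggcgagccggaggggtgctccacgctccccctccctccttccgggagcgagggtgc
Enpp6, chr8:46986637-46986886, plus strand: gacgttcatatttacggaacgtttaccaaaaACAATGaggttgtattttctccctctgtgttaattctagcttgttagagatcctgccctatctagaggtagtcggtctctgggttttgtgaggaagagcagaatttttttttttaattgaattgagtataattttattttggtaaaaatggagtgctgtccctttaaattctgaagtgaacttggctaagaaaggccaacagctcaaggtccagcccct
Nkx6-2, chr7:139582798-139583047, minus strand: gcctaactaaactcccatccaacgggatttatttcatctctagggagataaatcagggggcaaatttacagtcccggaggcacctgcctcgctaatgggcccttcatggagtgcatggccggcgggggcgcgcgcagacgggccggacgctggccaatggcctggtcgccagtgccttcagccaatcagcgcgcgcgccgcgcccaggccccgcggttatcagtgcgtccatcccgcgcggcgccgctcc
Pdgfra held CATCTG beginning 182 bases before the start site, Lhfpl3 held CAGCTG 158 and 149 bases before it, Enpp6 held ACAATG 219 bases before it, and Nkx6-2 held none of these letters. Of the other two genes in the table, Olig2 held ACAATG on the minus strand 68 bases before its start site and Nkx2-2 held CATCTG 220 and CACTTGA 197 bases before it, and their windows overlap exons of other annotated transcripts. Of all 32851 promoters of the same length, 13.0% held CAGCTG, 14.4% CATCTG, 2.68% CACTTGA, 16.5% ACAAAG and 10.7% ACAATG. These matches describe letters only.

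In the GRCm38 annotation (GENCODE M21), Olig2 (chromosome 16, 91225457 to 91228677) and Olig1 (91269772 to 91271933) lay on the plus strand of the same chromosome with 41094 bases between them. Sox10 was on chromosome 15 (79154908 to 79165240), Nkx2-2 on chromosome 2 (147177546 to 147194243), Nkx6-2 on chromosome 7 (139579376 to 139582797) and Myrf on chromosome 19 (10208272 to 10240748), all on the minus strand. Pdgfra (chromosome 5, 75152292 to 75198215), Lhfpl3 (chromosome 5, 22746059 to 23275597) and Enpp6 (chromosome 8, 46986887 to 47096762) were on the plus strand, and Gpr17 (chromosome 18, 31942997 to 31949636) was on the minus strand. The exons of Gpr17 overlapped those of Lims2, those of Nkx6-2 overlapped Inpp5a and those of Nkx2-2 overlapped Nkx2-2os, each on the opposite strand. Exons of Olig1, Pdgfra and Lhfpl3 overlapped those of noncoding genes, while Olig2, Sox10, Myrf and Enpp6 had no such overlap. The bulk libraries were made by Smart-seq2, which does not mark strand, so reads in these overlaps cannot be assigned to either gene. Nkx2-2os had 20, 17 and 0 counts in controls 1 to 3, against 21, 74 and 84 for Nkx2-2. In the mutants it had 6 to 16 counts, against 74 to 277 for Nkx2-2. In control 1, the lowest library of Nkx2-2, the counts were thus nearly equal. Lims2 was also not small beside its neighbour, with 186 to 1208 counts against 156 to 2237 for Gpr17.

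The bulk libraries held 4928456 to 13816596 counts. Mutants 3 and 4 had the fewest counts and the most genes with at least 1 count (40852 and 39508), and controls 2 and 3 and mutant 1 had the fewest such genes (21986, 17874 and 25910), so detection moved against depth and partly with the groups. Mitochondrial genes took 4.74%, 6.13% and 7.01% of counts in the controls and 4.40%, 3.69%, 3.96% and 3.67% in the mutants, without overlap, and the part of this difference in the results was not tested. With the number of detected genes as a covariate, 1 gene was called and 0 of the 10. Rax was at 26.8, 40.9 and 143 CPM (counts of a gene over the TMM-scaled library total, times 1000000) in the controls and at 33.2 to 175 CPM in the mutants. Counts per gene cannot show the altered Braf base, so the allele itself was not checked here. The study reports its expression in mutant tumor tissue, by XbaI digestion and Sanger sequencing of amplified cDNA.

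In the mutant ME, 9 of the 10 genes had a higher mean level than in control ME, and Nkx6-2 had a lower one. Of all 20466 genes tested, 11607 had a positive log2 fold change and 8859 a negative one. The 4 largest differences were those of Lhfpl3, Gpr17, Nkx2-2 and Olig2. No gene of the 10 passed the test, and no gene of the 20466 tested did so (edgeR's quasi-likelihood test, Benjamini-Hochberg adjusted p below 0.05, 0% called). At an unadjusted p below 0.05, 7 of the 10 were higher and 0 were lower, beside 4.23% of all genes higher and 3.89% lower. In 4 of the 10 (Olig1, Nkx2-2, Gpr17 and Lhfpl3), every mutant lay above every control, beside 5.83% of all genes. The same 4 were called by DESeq2, which called 297 genes in all and 0.866% of genes as higher, while limma-voom called 0. Of the 10, these 4 alone had an unadjusted p below 0.05 in all 18 fits run. The median log2 fold change was 1.61 over the 10 genes and 0.13 over all genes tested. In bulk tissue, a change in the number of cells of a type and a change in RNA per cell cannot be told apart.

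**Figure D1:**
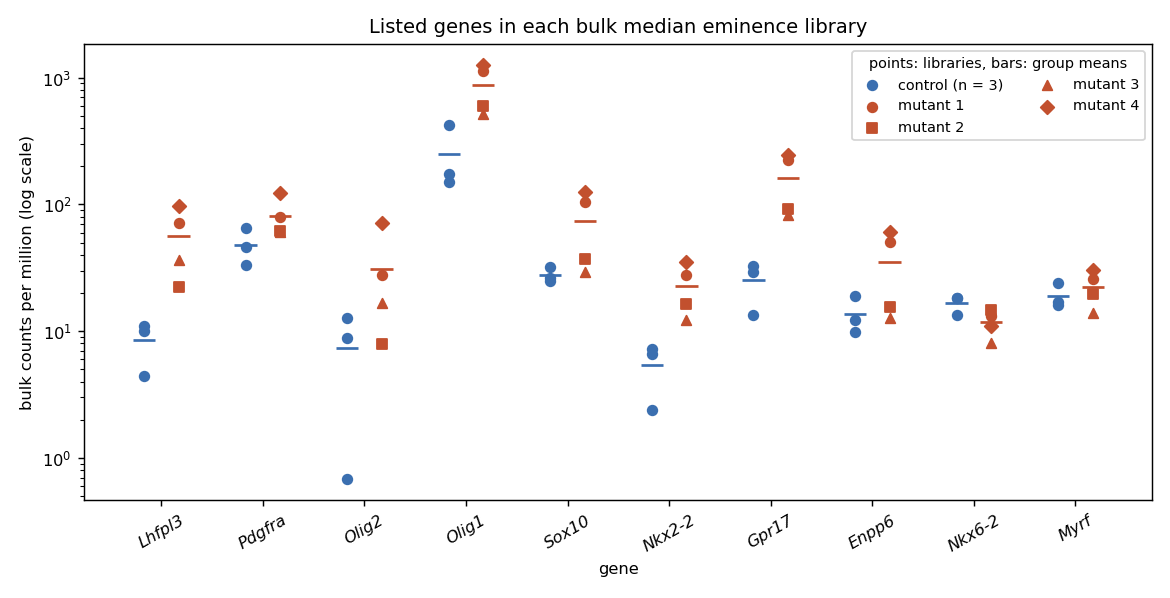
Bulk CPM on a log axis for the 10 genes in each of 3 control (blue) and 4 mutant (red, 1 symbol for each mouse) libraries, with bars at the group means. Mutants 4 and 1 are the highest libraries for 9 genes, and control 1 is the low point of Olig2 at 0.678 CPM.

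Among markers of the early stages, Gpr17 stood at 32.9, 29.2 and 13.3 CPM in the controls (25.2 ± 10.4, SD, n = 3) and at 224, 92.4, 82.2 and 246 CPM in mutants 1 to 4 (161 ± 85.9, SD, n = 4). The groups did not overlap, and the log2 fold change was 2.68 ± 0.51 (SE), with an adjusted p of 0.194 by edgeR and 1.29e-05 by DESeq2. Lims2, whose exons overlap Gpr17, had a log2 fold change of 0.84 with an unadjusted p of 0.197. Lhfpl3 was at 10.96, 10.04 and 4.45 CPM in the controls and at 71.3, 22.4, 36.4 and 96.3 CPM in the mutants. Again every mutant lay above every control, with a log2 fold change of 2.74 ± 0.57 (SE) and an adjusted p of 0.247 by edgeR and 0.000287 by DESeq2. Enpp6 was at 12.2, 9.77 and 19.0 CPM in the controls and at 50.8, 15.5, 12.7 and 60.9 CPM in the mutants. Only mutants 1 and 4 exceeded the highest control, and its log2 fold change of 1.35 ± 0.59 (SE) had an adjusted p of 0.596.

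Pdgfra, the PDGF receptor of precursors, was at 33.6, 65.0 and 46.1 CPM in the controls and at 79.8, 61.4, 60.1 and 122 CPM in the mutants. The groups overlapped, and the log2 fold change of 0.74 had a 95% interval from -0.05 to 1.54 (adjusted p of 0.643, edgeR). Pdgfra is also carried by vascular and leptomeningeal cells (VLMCs), whose markers were lower in the mutants: all 6 had a negative log2 fold change (median -1.43), and 4 of the 6 lay below every control in every mutant, beside 3.18% of all genes. Their summed level was 1207 to 2947 CPM in the controls and 382 to 809.5 CPM in the mutants. Of these markers, Mfap4 had a log2 fold change of -2.91 ± 0.39 (SE) with an adjusted p of 0.0678 by edgeR and 1.27e-08 by DESeq2. Dcn had one of -2.29 with an adjusted p of 0.194 by edgeR and 1.29e-05 by DESeq2. In all, DESeq2 called 3 of the 6 as lower. As a share of Lum, 1 of these markers, Pdgfra was at 40.1%, 31.2% and 23.4% in the controls and at 145%, 224%, 126% and 474% in the mutants. Lum was picked after its values were seen, and its own log2 fold change of -2.06 enters this share. Over the 6 markers the log2 fold change ran from -2.91 to -0.62. The part of VLMCs in the Pdgfra value was not tested. Without control 2, the log2 fold change of Pdgfra was 1.03, and without mutant 4 it was 0.49.

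Among the regulators of all stages, Olig1 was at 149, 425 and 175 CPM in the controls and at 1130.4, 601, 515 and 1264 CPM in the mutants. Every mutant lay above control 2, the highest control, and the log2 fold change was 1.81 ± 0.48 (SE), with an adjusted p of 0.411 by edgeR and 0.00495 by DESeq2. Olig2 was at 0.678, 8.79 and 12.7 CPM in the controls and at 27.98, 7.92, 16.7 and 71.7 CPM in the mutants. Control 1 had 6 Olig2 counts against 1318 of Olig1, and mutant 2 lay below controls 2 and 3. The log2 fold change of Olig2 was 2.06 ± 0.91 (SE), with an adjusted p of 0.605. It was 1.25 without mutant 4, 3.92 with detected genes as a covariate and 5.49 without controls 2 and 3 and mutant 1. Sox10 was at 24.7, 26.1 and 31.8 CPM in the controls and at 104, 36.9, 29.1 and 125 CPM in the mutants, so that mutant 3 lay within the controls. Its log2 fold change was 1.41 ± 0.51 (SE) with an adjusted p of 0.52.

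Of the homeodomain factors, Nkx2-2 was at 2.37, 6.57 and 7.19 CPM in the controls and at 27.7, 16.5, 12.4 and 35.0 CPM in the mutants. The groups did not overlap, and the log2 fold change was 2.08 ± 0.56 (SE), with an adjusted p of 0.413 by edgeR and 0.0269 by DESeq2. Nkx6-2 was at 13.3, 18.2 and 18.2 CPM in the controls and at 13.2, 14.8, 8.02 and 11.1 CPM in the mutants. Here mutants 1, 3 and 4 lay below every control and mutant 2 did not, and the log2 fold change of -0.49 had a 95% interval from -1.39 to 0.41. Inpp5a, which overlaps Nkx6-2, had 47 to 175 counts against 48 to 213. Myrf was at 16.05, 24.2 and 16.9 CPM in the controls and at 25.6, 19.6, 13.9 and 30.6 CPM in the mutants. The groups overlapped widely, and the log2 fold change of 0.23 had a 95% interval from -0.63 to 1.10.

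**Figure D2:**
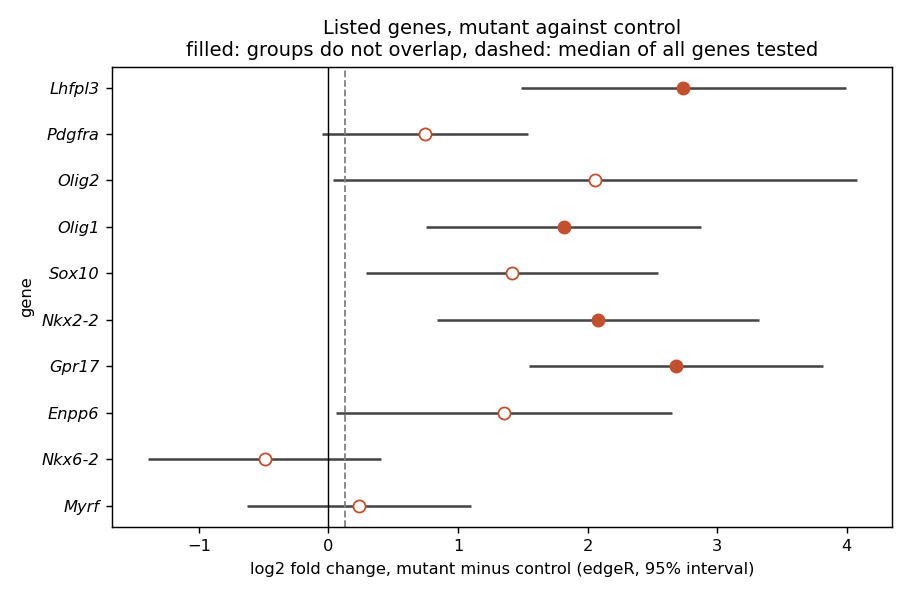
Log2 fold change of the 10 genes, mutant minus control, with 95% intervals from edgeR's fit over 20466 genes; filled points mark genes whose groups do not overlap and the dashed line the median of all genes (0.13). The 4 filled points lie between 1.81 and 2.74, and the intervals of Pdgfra, Nkx6-2 and Myrf include 0.

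Levels between genes were compared per kilobase of annotated exon, since whole transcripts were sequenced. Olig1 had by far the highest mean level, 115 CPM per kb in the controls and 406 in the mutants, and its lowest library lay above the highest library of the next gene in both groups. In the controls, Sox10 (9.03) and Nkx6-2 (8.70) followed, with overlapping ranges, and Nkx6-2 lay apart from Gpr17 (4.84). The other 6 neighbouring pairs of the control order, down to Nkx2-2 at 1.87 CPM per kb, overlapped. In the mutants, Gpr17 (31.0), Sox10 (24.1) and Lhfpl3 (17.6) came next to Olig1, while Myrf (2.62) was last and Nkx6-2 (6.17) eighth, and all 8 pairs below Olig1 overlapped.

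Other genes of the lineage were taken from lists that leave out the 10. These lists, too, were chosen with earlier results of these data known, so their counts are descriptions. Of 10 OPC markers, all 10 were higher in the mutants, all 10 at an unadjusted p below 0.05, beside 4.23% of all genes. By edgeR, 0 passed the adjusted threshold. In 7 of the 10, every mutant lay above every control, beside 5.83% of all genes. The median log2 fold change of these 10 was 1.58, and DESeq2 called 3 of them as higher. Matn4, a matrix protein, was at 5.198, 12.5 and 7.87 CPM in the controls and at 69.4, 24.0, 29.7 and 139 CPM in the mutants (log2 fold change of 2.93 ± 0.65, SE, adjusted p of 0.31). The protocadherin Pcdh15 had a log2 fold change of 1.47 with an adjusted p of 0.428. Cspg4 (NG2), the proteoglycan that defines these cells, had 78, 113 and 0 counts in the controls and 293 to 671 in the mutants, so that control 3 lacked it. Of 8 markers of committed or newly formed cells, 6 were higher and 2 lower, and the median was 0.76. Only Neu4, a sialidase, was at an unadjusted p below 0.05, beside 4.23% of all genes higher. Neu4 had a log2 fold change of 2.998 ± 0.68 (SE) with an adjusted p of 0.325 by edgeR and 0.000346 by DESeq2. Itpr2, a calcium channel of the endoplasmic reticulum, had one of 0.68 with an adjusted p of 0.682 by edgeR.

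The 10 markers of mature oligodendrocytes went the other way. All 10 were lower in the mutants, 8 at an unadjusted p below 0.05, beside 3.89% of all genes. By edgeR, 0 passed the adjusted threshold, and the median log2 fold change was -1.29. DESeq2 called 2 of the 10 as lower. None of the 10 had groups that did not overlap, while 3.18% of all genes had every mutant below every control. Opalin, a myelin sialoglycoprotein, was at 22.1, 79.3 and 100.1 CPM in the controls and at 13.9, 24.6, 13.7 and 11.6 CPM in the mutants (log2 fold change of -2.07 ± 0.49, SE, adjusted p of 0.359). Mal, a myelin proteolipid, had a log2 fold change of -1.36 with an adjusted p of 0.44. Mog, a myelin gene outside this list, was at 103, 310.4 and 546 CPM in the controls and at 92.2, 88.0, 64.1 and 47.0 CPM in the mutants, without overlap (log2 fold change of -2.13 ± 0.49, SE, adjusted p of 0.325 by edgeR and 0.00207 by DESeq2). The summed OPC markers were 7.05%, 3.19% and 2.01% of the summed mature markers in controls 1 to 3 and 19.4%, 13.7%, 21.8% and 30.9% in mutants 1 to 4, without overlap. Bcan, a brain proteoglycan, made up 52.4% to 82.5% of the summed OPC markers of a library, and in the single cells 68.9% of its UMIs lay outside the lineage. Without Bcan, an alternative chosen after seeing the data, controls 1 to 3 had shares of 1.71%, 0.558% and 0.767%, and mutants 1 to 4 had shares of 4.93%, 3.22%, 5.67% and 14.7%, again without overlap. Gpr17 was at 31.9%, 9.41% and 2.45% of Mog in the controls and at 242%, 105%, 128% and 524% in the mutants. Both shares were chosen with these data in view, and no test was run on them.

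**Figure D3:**
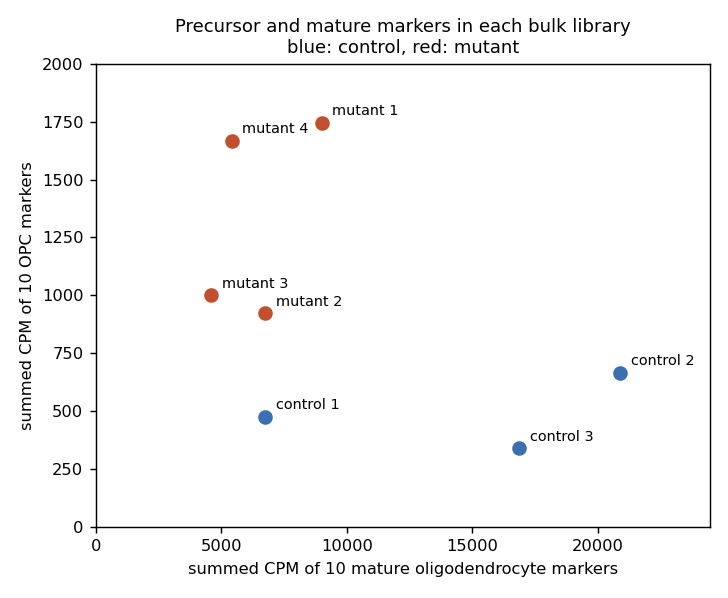
Summed CPM of 10 OPC markers (vertical axis) against summed CPM of 10 mature oligodendrocyte markers (horizontal axis), 1 point for each bulk library, controls in blue and mutants in red. The mutants lie at 922 to 1746 CPM of OPC markers and the controls at 339 to 666, while control 1 has as low a sum of mature markers (6742 CPM) as mutant 2 (6749 CPM). Bcan gives 52.4% to 82.5% of each OPC sum.

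Of the 26 other regulators of the lineage, 25 were tested, and 19 were higher and 6 lower in the mutants. At an unadjusted p below 0.05, 4 were higher and 1 lower, beside 4.23% and 3.89% of all genes. The median log2 fold change of the 25 was 0.41, and DESeq2 called 1 of them as higher. The SoxC factor Sox11 was at 9.94, 12.1 and 12.6 CPM in the controls and at 44.96, 42.9, 31.9 and 46.8 CPM in the mutants, without overlap (log2 fold change of 1.85 ± 0.33, SE, adjusted p of 0.143). Of 12 genes of PDGF and hedgehog signalling, 7 were higher and 5 lower. Among all genes tested, 11607 were higher and 8859 lower. At an unadjusted p below 0.05 were 0 of the 12, and their median was 0.17. The ligand Pdgfd had a log2 fold change of 0.74 and the ligand Shh one of -1.61, with adjusted p of 0.671 and 0.742.

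Markers of other cell types were read in the same libraries. The median log2 fold change was 0.23 for 7 tanycyte markers (Crym 1.88, Scn7a -0.87), -0.64 for 6 ependymal markers (Ccdc153 -1.35, Tmem212 -1.54), 0.39 for 6 astrocyte markers (Agt 0.79, Aqp4 0.66) and 0.47 for 7 neuron markers (Slc17a6 1.73, Syt1 1.22). It was -0.56 for 5 endothelial markers (Plvap -2.35, Pecam1 -0.96), -0.58 for 5 mural markers (Rgs5 -0.58, Acta2 -0.82) and -0.90 for 6 macrophage or microglia markers (Aif1 -1.67, C1qb -0.98). It was -0.73 for 3 NK or T cell markers (Nkg7 -1.92, Ccl5 -0.73), -0.72 for 5 pars tuberalis markers (Cga -2.12, Pitx1 -1.48), -0.35 for 5 erythrocyte markers (Hba-a2 -0.74, Hba-a1 -0.69) and -0.60 for 3 Schwann cell markers (Pmp22 -0.54, Ncmap -0.60). None of these genes passed the adjusted threshold by edgeR. DESeq2 called 1 tanycyte marker as higher, and 1 endothelial and 1 pars tuberalis marker as lower. The part of these cell types in the values of the 10 genes was not tested.

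The single-cell library shows in which cells of normal ME the 10 genes are carried. It held 990 cells with 3284 to 57119 UMIs each (unique molecular identifiers, which count captured transcripts), and all 990 barcodes were distinct. The cells were clustered without the 10 genes and Mog. Of the 11 clusters, 2 carried the lineage: cluster 5 (60 cells) had all 10 OPC markers at a CPM at least 3 times that of the remaining cells, and cluster 8 (44 cells) had 10 of 10 mature oligodendrocyte markers. Cluster 5 was led by C1ql1, Fabp7, Fyn, Gpr17 and Lims2 and also by the cell cycle gene Top2a, and cluster 8 by Mal, Mog, Ptgds, Ermn and Sept4. Together they made up 104 cells, 10.5% of the library (95% Clopper-Pearson interval 8.66% to 12.6%).

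Within these 104 cells, stages were set by 3 genes. Cells with at least 2 Enpp6 UMIs were called Enpp6-positive (25 cells), the remaining cells with at least 2 Pdgfra UMIs Pdgfra-positive (33 cells), and those with at least 2 Mog UMIs Mog-positive (38 cells), which left 8 cells unstaged. No cell had 2 UMIs or more of both Pdgfra and Mog, or of both Enpp6 and Pdgfra, while 17 of the 25 Enpp6-positive cells also had 2 Mog UMIs or more. Near the limit, 3 lineage cells had exactly 2 Enpp6 UMIs and 20 had 1, 4 had exactly 2 Pdgfra UMIs and 7 had 1, and 2 had exactly 2 Mog UMIs and 3 had 1. All 33 Pdgfra-positive cells and 18 Enpp6-positive cells were in cluster 5, and 37 Mog-positive and the other 7 Enpp6-positive cells were in cluster 8. The median depth was 10256 UMIs in Pdgfra-positive, 19021 in Enpp6-positive and 13228 in Mog-positive cells, and 1 Enpp6-positive cell was called a doublet. The levels of Pdgfra, Enpp6 and Mog by stage follow from this rule and are given as a description. As all cells came from 1 library, no test was run, and intervals cover counting error only. UMIs were counted at the 3′ end of transcripts, so CPM of UMIs (the summed UMIs of a gene over all UMIs of the group, on the CPM scale) carries no term for length.

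**Figure D4:**
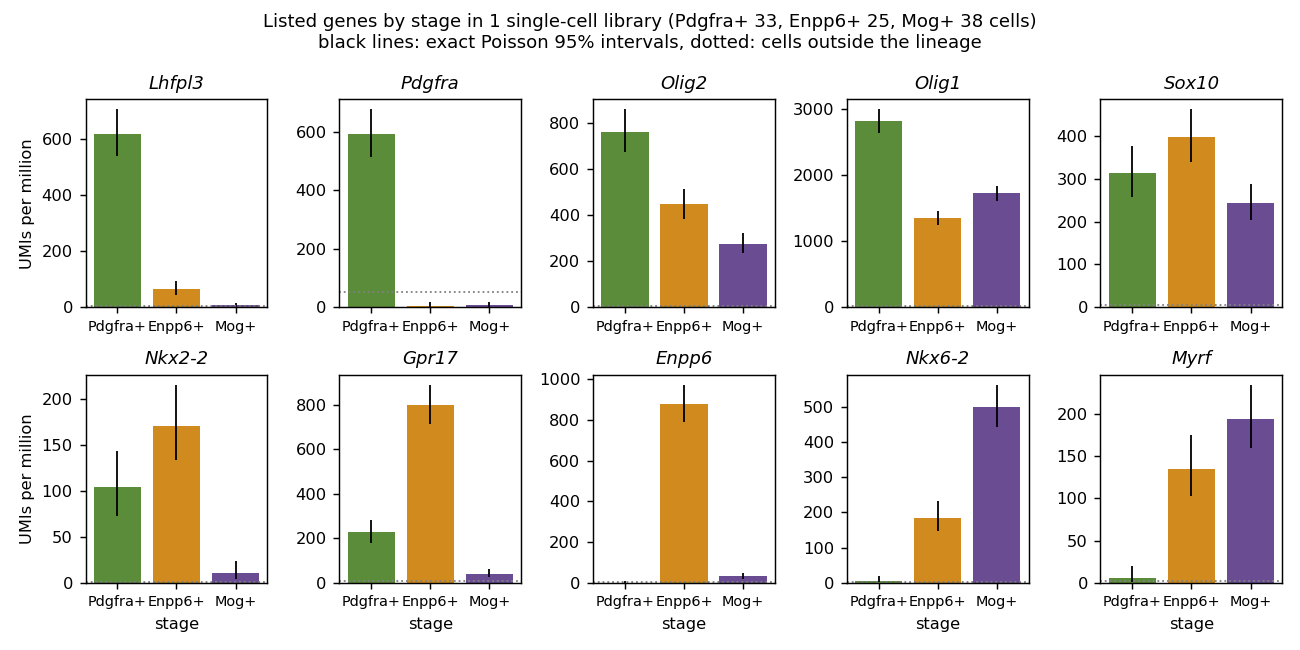
CPM of UMIs of the 10 genes in Pdgfra-positive (33), Enpp6-positive (25) and Mog-positive (38) cells, with exact Poisson 95% intervals and a dotted line at the level in the 886 cells outside the lineage. Lhfpl3, Olig2 and Olig1 are highest in Pdgfra-positive, Gpr17, Nkx2-2 and Sox10 in Enpp6-positive, and Nkx6-2 and Myrf in Mog-positive cells.

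Olig1 and Olig2 were found at all stages and were highest in the precursors. Olig1 was at 2813 CPM in Pdgfra-positive (95% Poisson interval 2642 to 2993), 1344 CPM in Enpp6-positive (1236 to 1460) and 1719 CPM in Mog-positive cells (1612 to 1831). Olig2 was at 763, 446 and 275 CPM in the same order, a ratio of 2.78 (2.27 to 3.41) between Pdgfra-positive and Mog-positive cells. Over these 3 stages Sox10 varied least, at 314, 398 and 244 CPM, and its interval in Pdgfra-positive cells (259 to 378) overlapped both others. The Enpp6-positive value pooled unlike cells. Sox10 was at 474 CPM (398 to 561) in the 18 of them in cluster 5 and 233 CPM (159 to 331) in the 7 in cluster 8. All 33 Pdgfra-positive cells had UMIs of both Olig1 and Olig2, and so had 23 of 25 Enpp6-positive and 35 of 38 Mog-positive cells.

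The homeodomain factors divided the lineage. Nkx2-2 was at 104 CPM in Pdgfra-positive (73.1 to 143) and 171 CPM in Enpp6-positive cells (134 to 215), and at 10.8 CPM in Mog-positive cells (3.95 to 23.4). Nkx6-2 ran the other way, at 5.61 CPM in Pdgfra-positive (2 UMIs, 0.679 to 20.3), 185 CPM in Enpp6-positive (146 to 231) and 499 CPM in Mog-positive cells (442 to 562). In Enpp6-positive cells, 10 of 25 had UMIs of both factors, against 2 of 33 Pdgfra-positive and 6 of 38 Mog-positive cells. The Enpp6-positive level of Nkx6-2 came from both clusters unequally: it was 79.6 CPM (50.5 to 119) in the 18 cells of cluster 5 and 414 CPM (312 to 539) in the 7 cells of cluster 8. Nkx2-2 was at 239 CPM (186 to 302) and 22.6 CPM (4.66 to 66.0) in the same 18 and 7 cells. The 7 cells held 26 Enpp6 UMIs between them, against 344 in the 18. Over all stages, Myrf followed Nkx6-2, with 2 UMIs in Pdgfra-positive cells (5.61 CPM), 135 CPM in Enpp6-positive (102 to 175) and 194 CPM in Mog-positive cells (159 to 234). The ratio of Myrf between Mog-positive and Enpp6-positive cells was 1.44 (1.03 to 2.01).

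Gpr17 was highest in Enpp6-positive cells at 799 CPM (716 to 889), against 227 CPM in Pdgfra-positive (180.4 to 282) and 39.5 CPM in Mog-positive cells (24.8 to 59.8). Of the 337 Gpr17 UMIs in Enpp6-positive cells, 330 were in the 18 cells of cluster 5 (1142 CPM, 1022 to 1272) and 7 in the 7 cells of cluster 8. It was higher still in the 8 unstaged cells, at 1937 CPM (1591 to 2337), where Nkx2-2 was also at its highest, 391 CPM (245 to 592), as was Sox10, 533 CPM (360 to 761), and 0 Mog UMIs were found, below a floor of 53.3 CPM for 3 UMIs. These 8 cells had a median of 5693 UMIs. They were left unstaged because each had under 2 UMIs of Pdgfra, of Enpp6 and of Mog. Low levels of these 3 genes there follow from the staging rule and are no result. Of the 3 stages, Lhfpl3 was highest in the precursors, at 617 CPM (538 to 704), 64.0 CPM (42.2 to 93.2) and 5.39 CPM (1.11 to 15.8). All 33 Pdgfra-positive cells had at least 1 UMI of it. In the 8 unstaged cells it was at 302 CPM (176 to 484), with UMIs in 7 cells. Pdgfra had 2 UMIs there, a level that the staging rule kept low. Both Gpr17 and Lhfpl3 were found in 23 of 33 Pdgfra-positive, 11 of 25 Enpp6-positive and 1 of 38 Mog-positive cells. Pdgfra was at 592 CPM in the cells it defined, and at 4.74 and 5.39 CPM in the other stages. Enpp6 was at 877 CPM in the cells it defined, at 30.5 CPM in Mog-positive cells, with 1 UMI in each of 17 cells, and at 0 of 33 Pdgfra-positive cells, where 3 UMIs would be 8.42 CPM.

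Erythrocyte-like cells, which should lack these genes, gave the background of free RNA (242 cells, median 7708 UMIs). At least 1 UMI was found in 7.85% of them for Olig1, 6.20% for Pdgfra, 2.48% for Gpr17 and for Myrf, 1.65% for Sox10, 1.24% for Nkx2-2, 0.826% for Lhfpl3 and for Enpp6, and 0.413% for Olig2 and for Nkx6-2. The shares of Pdgfra-positive cells with Nkx6-2 or Myrf (6.06% each, 95% interval 0.743% to 20.2%) rested on 2 cells, and the interval holds the background share of Myrf and begins just above that of Nkx6-2. With all 990 cells thinned to 3000 UMIs, Nkx2-2 was found in 30.3% of Pdgfra-positive, 48.0% of Enpp6-positive and 0% of the 38 Mog-positive cells, against 60.6%, 64.0% and 15.8% unthinned. Nkx6-2 was then found in 0% of the 33 Pdgfra-positive, 40% of Enpp6-positive and 76.3% of Mog-positive cells, against 6.06%, 64.0% and 94.7% unthinned. Myrf was then found in 3.03%, 32.0% and 39.5%, against 6.06%, 72.0% and 89.5% unthinned.

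Outside the lineage, Pdgfra differed from the other 9 genes. Of its 656 UMIs, 33.2% were in lineage cells and 57.8% in the 180 VLMC-like cells, where it was at 305 CPM (275 to 338). For the other 9 genes, 88.1% (Lhfpl3) to 98.1% (Nkx6-2) of UMIs were in lineage cells, and the highest level in any other cluster was 27.9 CPM or less. That highest value was Olig1 in NK or T cell-like cells. In the 226 tanycyte-like cells of clusters 2 and 4 (150 and 76 cells), the cell type in which the Cre of the mutants is active, Olig2 was at 1.77 and 2.74 CPM and Sox10 at 2.65 and 2.74 CPM, against 1.89 and 4.14 CPM over all cells outside the lineage. Olig1 was at 23.0 CPM (15.0 to 33.7) in cluster 2 and 12.8 CPM (6.99 to 21.4) in cluster 4, against 13.8 CPM outside the lineage. Gpr17 was at 3.54 CPM (4 UMIs) in cluster 2 and 10.96 CPM (12 UMIs, 5.66 to 19.1) in cluster 4, against 5.56 CPM, and cluster 4 was its highest cluster outside the lineage. Nkx2-2 was highest outside the lineage in cluster 2, at 2.65 CPM (3 UMIs).

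**Figure D5:**
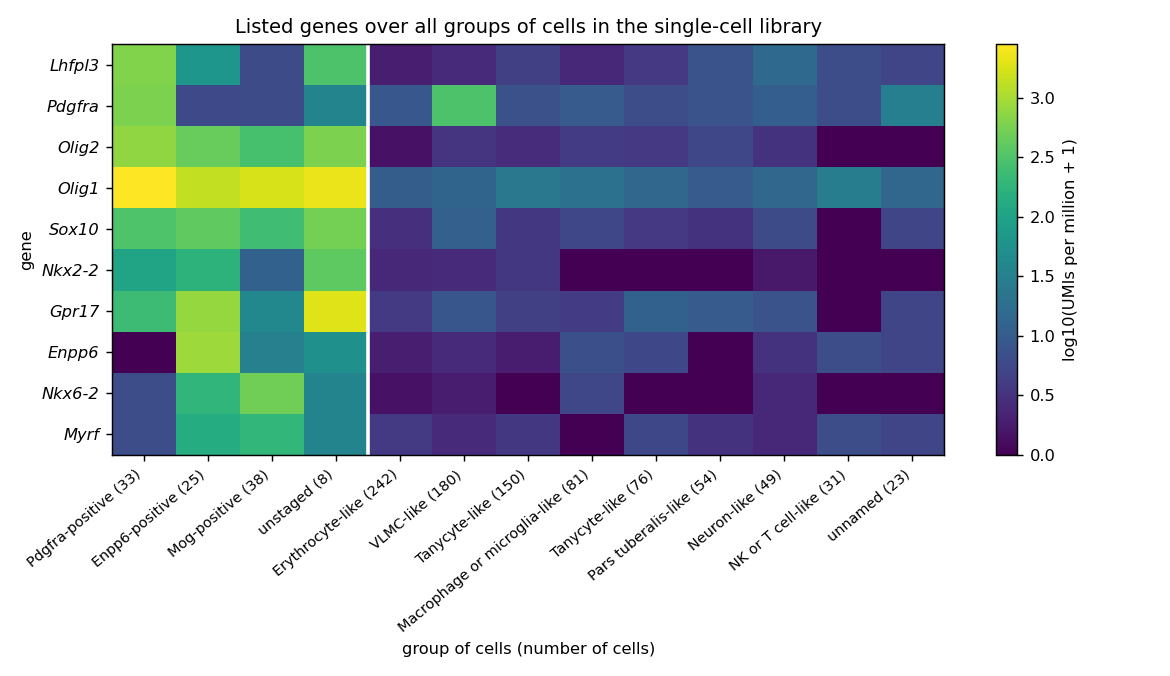
Level of the 10 genes, as log10(CPM of UMIs + 1), in the 3 stages, the unstaged cells and the other 9 clusters (number of cells in brackets; the white line parts lineage cells from the rest). Outside the lineage, the highest value is that of Pdgfra in VLMC-like cells (305 CPM, against 592 CPM in Pdgfra-positive cells), and the other 9 genes are at 27.9 CPM or less.

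Over the 13 groups of cells (3 stages, unstaged cells and 9 other clusters), the genes most like Olig2 by Pearson's r of log2(CPM + 1) were Sox10 (0.97), C1ql3 (0.97), Olig1 (0.96), Zfp488 (0.96) and Bcas1 (0.96), among 11096 genes with at least 50 UMIs. Those most like Myrf included Grb14 (0.95), Cnp (0.91), Mbp (0.90) and Ephb1 (0.89), of which Cnp and Mbp encode myelin proteins. The groups share 1 library and differ in depth. Of the OPC list, 8 of 10 markers were highest in Pdgfra-positive cells, of the committed list 6 of 7 in Enpp6-positive cells (the exception was Neu4, at 275 CPM in Pdgfra-positive and 251 CPM in Enpp6-positive cells), and of the mature list 9 of 10 in Mog-positive cells. Of the 26 other regulators, 16 were counted as highest in Pdgfra-positive cells. That count takes in Nkx6-1, which had 0 UMIs in all 990 cells, and near ties such as Yy1 (47.7 CPM, against 46.7 CPM in Mog-positive cells). It also takes in Sox11 (168 CPM, against 11.9 CPM in Enpp6-positive and 0 UMIs in Mog-positive cells). Of the 291 Sox11 UMIs, 220 (75.6%) lay outside the lineage, in 123 cells.

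Set side by side, the 4 genes highest in Pdgfra-positive cells (Olig1, Olig2, Pdgfra and Lhfpl3) had bulk log2 fold changes of 0.74 to 2.74, mutant minus control. The 4 highest in Enpp6-positive cells (Sox10, Nkx2-2, Gpr17 and Enpp6) had values of 1.35 to 2.68. Pdgfra (0.74) and Enpp6 (1.35) fall in these groups by the staging rule, and 57.8% of Pdgfra UMIs were in VLMC-like cells. With a stage limit of 1 UMI, Sox10 and Nkx2-2 were highest in Pdgfra-positive cells instead. In the 8 unstaged cells, Gpr17, Nkx2-2 and Sox10 were higher than in Enpp6-positive cells. The 2 highest in Mog-positive cells were Nkx6-2, at -0.49, and Myrf, at 0.23. The bulk mutants had no single-cell library, so the stages of their cells were not measured by sequencing. From its own bulk RNAseq analysis, the study names Nkx2-2, Olig1 and Cspg5 among genes enriched in tumor tissue. The filter behind that list is not detailed in the sources used here. Of these 3 genes, Cspg5 was not called by any of the tools used here. Its log2 fold change was 1.70, with an adjusted p of 0.44 by edgeR, 0.0512 by DESeq2 and 0.411 by limma-voom, and its groups overlapped. By staining of mutant ME, the study reports more Sox2 and Olig2 double-positive OPCs in the tumor margin. It also reports raised division and differentiation of OPCs beside the tumor. It found no Olig2, CC1 or PDGFRα in tumor cells of the center.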

How the data were processed

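The members and gene lists were chosen with earlier results of these data known. For bulk RNAseq, the authors deposited raw read counts per Ensembl gene, and the aligner and counter are not given in the sources used here (the submitters' processing notes name DESeq2). For single cells, the authors deposited UMI counts per gene and cell, made with Cell Ranger (2.0.1 in the processing notes). The 55450 bulk identifiers were all in GENCODE M21, symbols came from the single-cell gene table, and 0 columns were left unused.

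The test of the bulk table was that of edgeR 4.0.16, run in R 4.3.3 (TMM, filterByExpr, quasi-likelihood test, no covariate, Benjamini-Hochberg adjusted p below 0.05), with all 3 control and 4 mutant libraries. SEs are the log2 fold change over the square root of F. Alternatives were DESeq2 1.42.0, limma-voom (limma 3.58.1), other scalings, filters and thresholds, a replicate block, the number of detected genes as a covariate, and libraries left out. The labels do not say that mice were paired. Each p sets the difference between the groups against the spread between these mice, which the fits moderate over all genes.

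UMI counts were log-normalized (scale factor 10000) and clustered in Seurat 5.3.0 with 4833 variable genes, 20 components and a resolution of 0.8, and doublets (6 cells, 0.606%, kept) were called with Scrublet in scanpy 1.11.5. A cluster belonged to the lineage if at least 3 lineage markers had a CPM at least 3 times that of the remaining cells, its best list was of the lineage and its 10 leading genes held no more markers of other types than of the lineage. That last condition was made exact after the data were seen, and so was the naming of other clusters by their best list. Intervals are exact (Poisson or Clopper-Pearson, 95%). All 10 genes are named, and of each other list the 2 members with the smallest p, since none passed the threshold (a few genes that this rule names are not reported here); Cspg4, Lum, Mog, Rax and the overlapping genes were added after their values were seen. The 3-count floor was 0.217 to 0.609 CPM in bulk libraries. The bulk tests were checked on simulated counts, drawn around a mean for each gene and scaled to the library sizes. The simulation did not copy the differences in detected genes between libraries, so it cannot speak to their part in the results.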

Additional observations from a re-analysis of the deposited data

How the results depend on the processing

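The direction of all 10 genes held in every fit that tested them; 9 were higher in the mutants under every setting, and 8 of the 9 tested with at least 10 counts in every library, which left out Olig2. The number of genes called was 0 with edgeR and TMM, 1 with DESeq2 size factors, 1 with upper-quartile scaling, 3 with library sizes alone, 297 with DESeq2, 0 with limma-voom, 240 without a filter, 13 with at least 10 counts in every library, 1 with detected genes as a covariate and 14 at an adjusted p below 0.1. Leaving out each library in turn gave 0 to 45 calls (45 without control 1, 16 without control 3), and leaving out controls 2 and 3 and mutant 1 gave 210, with the lone control assumed to vary like the mutants. Of the 10 genes, 4 were called by DESeq2, 4 without a filter (Olig2 in place of Nkx2-2) and 1 (Nkx2-2) without those 3 libraries; otherwise 0. The cause was not tested. The median log2 fold change of all genes was 0.13 with TMM, 0.25 with library sizes alone and 0.35 with limma-voom, and Myrf lay below that median in 5 fits. With the replicate block, 0 genes were called. At an unadjusted p below 0.05 in that fit were 4 of the 10 genes, beside 549 of all 20466 genes tested. The numbers were not taken as pairs, since the labels do not say that mice were paired. The same-numbered libraries deviated with r of -0.45, -0.01 and -0.23, and the other combinations with r of -0.19 to 0.42. With so few libraries, these values cannot show whether mice were paired.

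With a stage limit of 1 UMI, Enpp6-positive cells numbered 45 and Mog-positive cells 20, and Sox10 and Nkx2-2 were then highest in Pdgfra-positive cells. Thinned to 3000 UMIs, Pdgfra-positive cells numbered 19 and Enpp6-positive cells 15. The stage with the highest level was the same in 78 of 80 combinations of gene and setting. These include Pdgfra and Enpp6, whose highest stage follows from the staging rule, so their agreement carries no information. Of 30 levels by gene and stage, 9 left their main interval with the limit of 1 UMI, 2 with 3 UMIs and 13 when thinned. Under other clusterings or without called doublets, 0 of 30 did, so agreement under those settings carries little information.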
